A study of Mus musculus with 2 samples.

Results

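Ubiquitin-specific proteases (USPs) are the largest family of deubiquitinases, the enzymes that remove ubiquitin from other proteins. The mouse genes were chosen by symbol, as protein-coding genes on the autosomes and chromosome X called Usp followed by digits, with an optional final letter. This gave 49 genes of 21631 protein-coding genes on the same chromosomes. The sites described are peaks of N6-methyladenosine (m6A), a methyl mark on adenosines inside mRNA, found by sequencing the RNA fragments that an antibody against the mark pulled down (MeRIP-seq). The tissue was the uterus of wild-type mice, mated at 6 to 8 weeks of age and taken on gestational day 4, with the cell type labelled as mixed. The labels give 1 immunoprecipitated (IP) and 1 input sample of polyA RNA from that day, with no treatment or other genotype. The data are 1 list of 26584 peaks, recorded under the IP sample. Files of the input were not used here. With 1 library no value has a replicate error, and no test between samples was possible.

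Each of the 26584 peaks is named after a run called D8NegIP-Posinput. Its D8 does not match the labelled gestational day 4, and it pairs an IP called Neg with an input called Pos. What these words stand for is not given in the sources used here, so the background of each fold enrichment may come from another condition than the IP. The labels are followed here. Of 8 uterine markers, all 8 had a peak, where 45.4% of all protein-coding genes had one. Among the 8 were the progesterone receptor gene Pgr and the stromal transcription factor gene Hand2. The markers were chosen with earlier results of these data known. They do not bear on the day or on the words in the run name. Of 3 markers of other tissues, Myh6 and Ins2 had none, while the liver gene Alb had 5 peaks, the strongest at a fold enrichment of 8.67 (5.17 to 13.8). Whether RNA from other tissue plays a part in the values below was not tested.

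USPs are cysteine proteases that cut ubiquitin from substrates or trim ubiquitin chains, and so protect proteins from the proteasome or end a ubiquitin signal. Members act at chromatin, in DNA repair, on p53 and its ligase MDM2, on receptors in endosomes, and on signalling through transforming growth factor beta (TGF-beta), Wnt and interferon. m6A is written by a methyltransferase complex on mRNA in the nucleus and is known to be densest in long internal exons and near stop codons, where reader proteins bind it and can alter the stability of the transcript.

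A peak was given to a gene when its summit lay in the gene's RefSeq span, which includes introns. The fold enrichment at a summit is the authors' peak caller's ratio of IP fragments plus 1 to background fragments plus 1. Its intervals, in brackets, are 95% exact Poisson intervals of the number of IP fragments with the background taken as known. Intervals of shares are Wilson intervals at the same level, and both cover counting error only. Levels of fold enrichment describe the IP relative to its background and not the amount of a transcript.

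Sequence was taken from a RefSeq table of windows at the start sites of genes, which matched 37 of the 49 members. A peak touched the window in 2 of the 37 (5.41%, against 6.89% of the windows of all protein-coding genes there). Each window covers 250 bases before and 50 bases after the start site. Both are shown because they are the only member windows under a peak. They are RefSeq sequences on GRCm38.p6, the assembly of mm10, printed 5′ to 3′ along the gene, with the bases under the peak in capitals. The Usp7 window is chr16:8738293-8738592 and the Usp27x window is chrX:7375781-7376080, both on the minus strand.
Usp7: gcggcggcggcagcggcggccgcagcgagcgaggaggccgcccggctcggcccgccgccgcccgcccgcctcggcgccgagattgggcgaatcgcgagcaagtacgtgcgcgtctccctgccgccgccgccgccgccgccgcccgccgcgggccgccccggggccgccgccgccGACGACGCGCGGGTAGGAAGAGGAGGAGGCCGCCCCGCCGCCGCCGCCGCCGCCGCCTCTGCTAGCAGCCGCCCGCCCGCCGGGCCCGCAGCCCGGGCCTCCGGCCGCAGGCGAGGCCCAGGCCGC
Usp27x: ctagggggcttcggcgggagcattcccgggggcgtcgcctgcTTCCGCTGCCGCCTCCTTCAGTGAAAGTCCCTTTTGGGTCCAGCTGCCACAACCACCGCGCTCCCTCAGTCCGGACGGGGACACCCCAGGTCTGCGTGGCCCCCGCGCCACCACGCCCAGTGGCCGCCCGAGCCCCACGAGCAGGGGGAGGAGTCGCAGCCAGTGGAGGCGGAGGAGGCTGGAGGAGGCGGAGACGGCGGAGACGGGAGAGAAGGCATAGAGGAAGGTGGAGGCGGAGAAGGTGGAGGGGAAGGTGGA

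The Usp7 peak, at chromosome 16, 8738216 to 8738418, had its summit 1 bp before the start site in the table. It had a fold enrichment of 7.67 (4.04 to 13.5) from 10 IP fragments over a background of 0.434, and was the only peak in the span. That start site lies 18725 bp inside the Usp7 span, which extends further upstream. Usp7 encodes the protease that deubiquitinates MDM2 and p53. The Usp27x peak, at chromosome X, 7375415 to 7376038, had its summit 66 bp outside the span, on the side of the start site. It is therefore not counted among the peaks of the gene. Its fold enrichment was 6.50 (3.22 to 12.1) from 8 fragments.

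The letters GGAC, which belong to the sequence context in which m6A is written, were searched on both strands of these windows. The Usp27x window holds them 2 times on the sense strand, both under the peak, and 3 times on the other strand. Both sense matches lie before the start site, outside the span of Usp27x. The window covers 258 of the 624 bases of the Usp27x peak, and the rest of that peak was not searched. The Usp7 window, of which 86% of bases are G or C, does not hold GGAC on either strand. It covers 126 of the 203 bases of the Usp7 peak, so whether the rest of that peak holds GGAC is not known here. Of 21045 windows of protein-coding genes, 89.7% hold GGAC on either strand and 68.6% on the sense strand. The longer GGACT, which contains GGAC, is in 46.6% of windows on either strand, 2 times on the antisense strand of the Usp27x window and not in that of Usp7. These matches describe the letters and do not place a modified base.

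Peaks were frequent in Usp genes. Of 49 members, 37 had at least 1 peak (75.5%, 61.9 to 85.4), where 45.4% of all protein-coding genes had one. The members held 85 peaks in all. Usp genes are long, with a median span of 49429 bp against 17329 bp over all protein-coding genes, and longer genes carried peaks more often. Within classes of span the share still stood above that of all genes in each of the 4 classes. In genes over 100 kb, 7 of 8 members had a peak (87.5%), against 70.9% of all genes. Between 50 and 100 kb it was 12 of 16 (75%) against 60.4%, between 20 and 50 kb 13 of 18 (72.2%) against 51.7%, and under 20 kb 5 of 7 (71.4%) against 34.1%. Class by class the interval of the members' share is wide, and only under 20 kb does it lie wholly above the share of all genes. At the shares of all genes in the 4 classes, 27 of 49 genes would have carried a peak. The shares of all genes include genes silent in the uterus, and the part of expression in the difference was not tested.

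**Figure D1:**
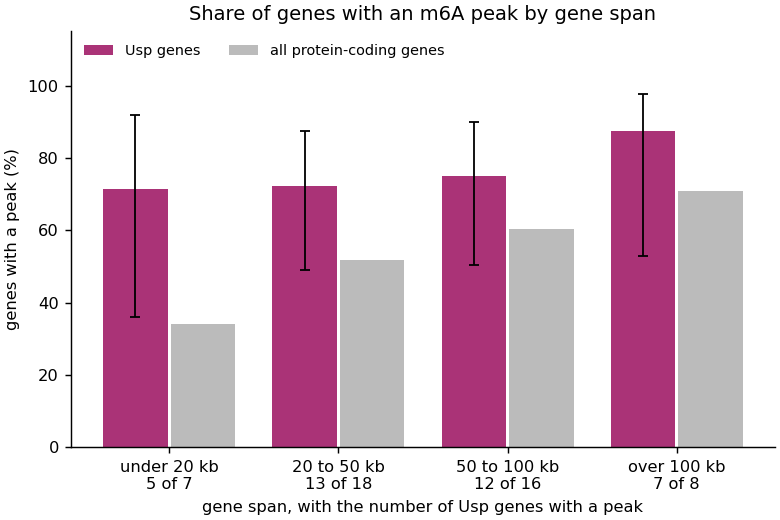
Bars give the percentage of genes with at least 1 m6A peak, for Usp genes and for all protein-coding genes, in 4 classes of gene span. Error bars are 95% Wilson intervals of the Usp share, and the Usp bar stands above the other in each class, from 71.4% against 34.1% under 20 kb to 87.5% against 70.9% over 100 kb.

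The number of peaks differed widely among the members. A single peak was found in 15 genes, 2 peaks in 9 and 3 peaks in 6. Usp1, Usp36, Usp38 and Usp54 had 4 peaks each, and Usp8, Usp47 and Usp53 had 6 each. The 13 members with 3 or more peaks made up 26.5% of the family (16.2 to 40.3), against 14.7% of all protein-coding genes. The 3 with 6 or more made up 6.12% (2.10 to 16.5), against 3.19%. These shares are of all genes, including those without a peak. Among genes with a peak the median was 2 peaks per gene, both in Usp genes and in all protein-coding genes. Gene span did not order the members by peak number. Across the 49 genes Spearman's rho between span and number of peaks was 0.06. Usp13, with a span of 121793 bp, had 1 peak, whereas Usp27x, with 3240 bp, had 3. Across the 37 genes with a peak, which share the 1 library, rho between the number of peaks and the highest fold enrichment was 0.54. A highest value can rise with the number of peaks it is taken from.

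The strength of the sites was close to that of other genes. Over the 85 peaks the median fold enrichment was 8.03 (quartiles 5.65 and 11.2), against 7.26 (5.57 and 10.3) over the 22983 peaks in protein-coding spans. The strongest peak of a gene had a median fold enrichment of 9.92 in the 37 members with a peak, against 9.36 in the 9822 protein-coding genes with one. The median IP pileup at the summit was 21 fragments, against 19, and the median background 2.11 fragments, against 1.58. Only 6 of the 85 peaks (7.06%) rested on fewer than 10 fragments, against 16.3% of all such peaks. Peaks wider than 1000 bp made up 9 of the 85 (10.6%), against 10.4%.

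**Figure D2:**
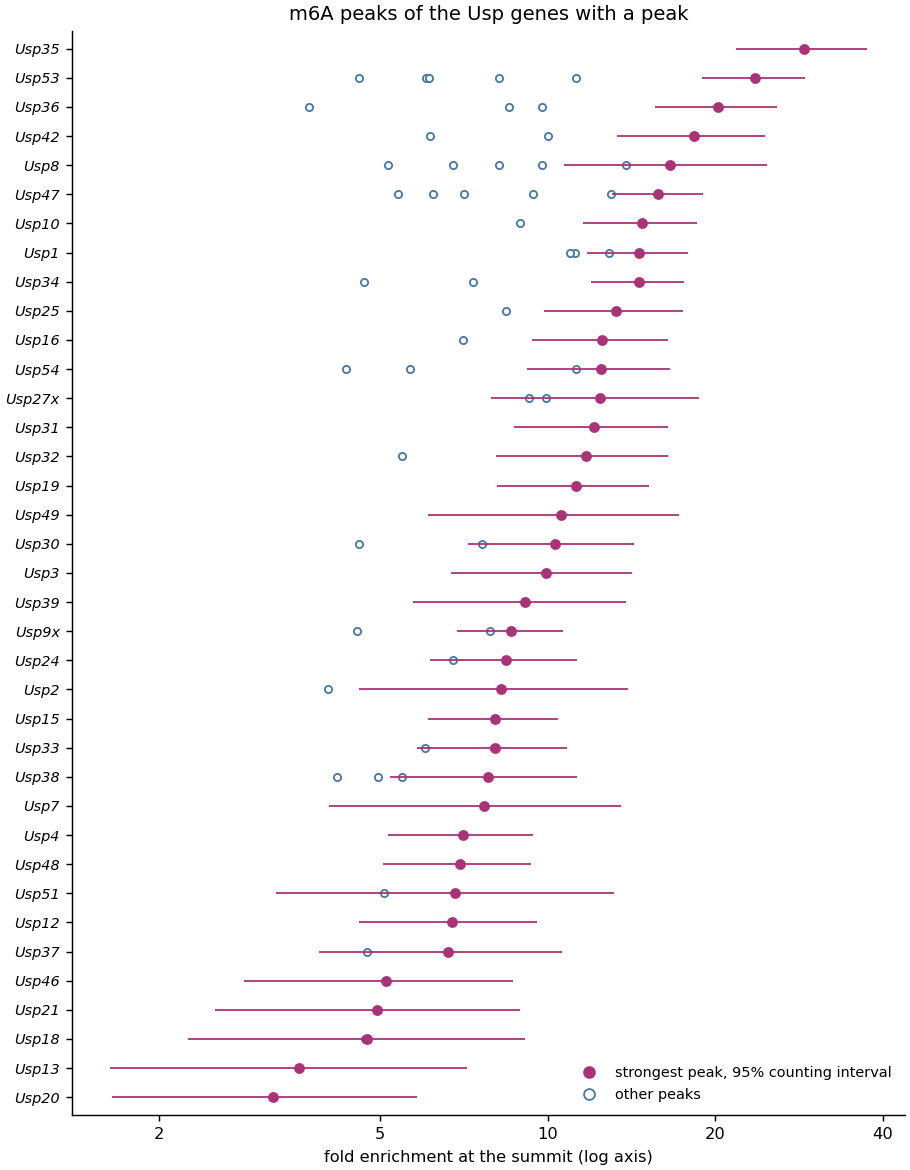
Fold enrichment at the summit (log axis) of each of the 85 peaks, by gene, for the 37 Usp genes with a peak. Filled points are the strongest peak of each gene with its 95% counting interval and open points the others; Usp35, at 28.8, stands highest and Usp20, at 3.21, lowest.

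Usp35 carried the strongest site of the family, as its only peak. It encodes a protease reported to act on the mitotic kinase Aurora B. At chromosome 7, 97312097 to 97312451, 54 IP fragments stood over a background of 0.907, a fold enrichment of 28.8 (21.8 to 37.5). Among the 9822 protein-coding genes that carried peaks, 82 had a higher one. The summit lay 2852 bp from the 3′ end of the span.

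Usp53, whose product localizes to tight junctions and is needed for hearing in mice, followed with 23.6 (18.9 to 29.0) at chromosome 3, 122949167 to 122949898, from 86 fragments. Its interval overlaps that of Usp35. The other 5 peaks of Usp53 ranged from 4.57 to 11.3, all below the lower bound of the strongest. The peak with 11.3, at 122933655 to 122934730, was 1076 bp wide and had 60 fragments.

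Usp36, which encodes the main nucleolar USP, reached 20.2 (15.6 to 25.8) at chromosome 11, 118264763 to 118265221. Its other 3 peaks had 9.75, 8.50 and 3.72. These 3 genes, Usp35, Usp53 and Usp36, were the members whose highest fold enrichment was at least 20. That is 6.12% of the family (2.10 to 16.5), against 2.62% of all protein-coding genes. Both shares include genes without a peak, which were a smaller part of the family than of all genes. Usp42, closely related to Usp36 and able to deubiquitinate p53, came next with 18.3 (13.3 to 24.6). Its peak at chromosome 5, 143714616 to 143716153, was 1538 bp wide, with further peaks of 10.02 and 6.15 on either side of it.

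Usp8 encodes the protease that strips ubiquitin from endocytosed receptors such as that of epidermal growth factor. Its highest value, 16.6 (10.7 to 24.8), came from 22 fragments over a background of 0.384 at chromosome 2, 126709195 to 126709427. The summit of that peak lies also in the pseudogene Gm10774, which is inside the Usp8 span, and reads of the 2 loci may not be separable. The strongest peak of Usp8 outside it, at 126741987 to 126742649, had 13.8 from 90 fragments, and the remaining 4 ranged from 5.16 to 9.75.

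Usp47, whose product stabilizes the repair enzyme DNA polymerase beta, had the most significant peak of the family. This site, at chromosome 7, 112092652 to 112093649, had 112 IP fragments, a −log10 q of 92.9 and a fold enrichment of 15.8 (13.03 to 18.98). Of its other 5 peaks, one at 112101565 to 112101858 had 13.0 and one at 112109754 to 112110606, near the 3′ end of the span, had 9.40. The rest had 5.38 to 7.06.

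Usp10 encodes a cytoplasmic p53 protease that also binds the stress granule protein G3BP1. It had 14.7 (11.6 to 18.5) at chromosome 8, 119941017 to 119942219, in a peak 1203 bp wide, and 8.92 at 562 bp from the 3′ end of its span. Usp1, the protease of the repair proteins FANCD2 and PCNA, had 14.6 (11.8 to 17.8) at chromosome 4, 98933973 to 98934993, from 92 fragments. Its 4 peaks had 11.2, 12.9, 11.0 and 14.6 in order along chromosome 4, all with overlapping intervals, and their summits lay within 4520 bp of the nearer span end. In Usp1 sites of like strength lay side by side, whereas in Usp53 a single site stood out.

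**Figure D3:**
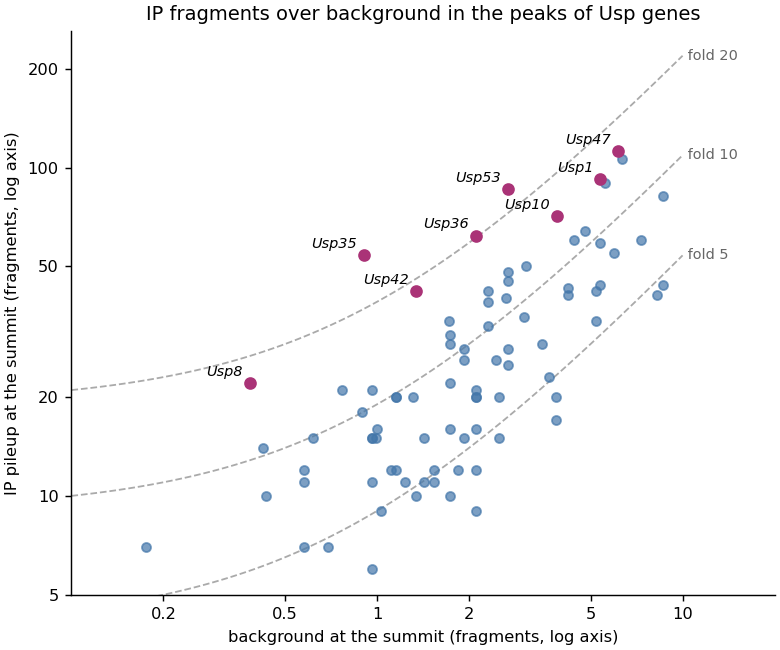
Each point is 1 of the 85 peaks, with the background at the summit on the x axis and the IP pileup on the y axis, both in fragments on log axes. Dashed lines mark fold enrichments of 5, 10 and 20, and the named points are the strongest peaks of the 8 genes with the highest fold enrichment; Usp35 lies above the line of 20 at a background of 0.907, while Usp47 has the most fragments, 112.

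Genes for the chromatin USPs, which act on ubiquitinated histones, had a peak in 7 of 10 cases (70%, 39.7 to 89.2), where 45.4% of all protein-coding genes and 75.5% of the family had one. The lists of roles used here and below are small, and the interval of each list's share contains the 75.5% of the family. No list is therefore set apart by its count. The lists also overlap, as Usp7, Usp9x, Usp11, Usp25, Usp28, Usp44 and Usp48 are each counted in more than a single list. Usp16, a protease of histone H2A, led them with 12.5 (9.35 to 16.4) at chromosome 16, 87478937 to 87479705, and a second peak of 7.04. Usp27x, whose product works with ATXN7L3 and ENY2 on histone H2B, had 12.4 (7.91 to 18.7), 9.91 and 9.24 in its 3 peaks. Usp49 had 10.5 (6.08 to 17.2) in its only peak, which lies also in the span of the protein-coding gene Gm20517. Usp3 had 9.92 (6.71 to 14.2), Usp51 6.81 (3.25 to 13.1) from 7 fragments and Usp21 4.93 (2.52 to 8.91) from 9. Usp11, Usp22 and Usp44 had none. Usp22 is the deubiquitinase of the SAGA coactivator complex.

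Of the 7 listed genes of DNA repair and of the proteases that WDR48 activates, 5 had a peak (71.4%, 35.9 to 91.8, against 45.4% of all genes). Beside Usp47 and Usp1, these were Usp48 with 6.95 (5.05 to 9.33), Usp12 with 6.73 (4.58 to 9.56) and Usp46 with 5.12 (2.84 to 8.65). The peak of Usp48, at chromosome 4, 137655973 to 137657507, was 1535 bp wide. Usp28 and Usp45 had none. Of 7 genes listed for p53, MYC and cell cycle control, 5 had a peak (71.4%, 35.9 to 91.8, against 45.4% of all genes). Their median highest value was 14.7, from 20.2 in Usp36 to 6.60 in Usp37. The value of Usp37, which deubiquitinates cyclin A, comes from a summit that lies also in Cnot9, a gene of the opposite strand, 1812 bp from the end of Cnot9. Outside that overlap Usp37 had 4.73 at 3756 bp from its own 3′ end. Usp28 and Usp44 had none.

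Genes of TGF-beta, Wnt and Hedgehog signalling had a peak in 6 of 7 cases (85.7%, 48.7 to 97.4, against 45.4% of all genes). The median span of the 7 was 92276 bp, and of all genes between 50 and 100 kb 60.4% had a peak. At the strongest summit the median background was 5.67, against 2.31 over all members with a peak. Usp34, which acts on the Wnt pathway scaffold axin, had 14.6 (11.95 to 17.6) from 106 fragments at chromosome 11, 23363660 to 23364401. That site lies 126607 bp from the 3′ end of the span. Another peak, 1211 bp wide, with 7.34 lies near that end, where the span overlaps Ahsa2 on the opposite strand. Usp25 had 13.3 (9.86 to 17.5) and 8.42 in neighbouring peaks whose summits lay 1247 and 1887 bp from the 3′ end. Usp9x, an X-linked protease of SMAD4 and many other substrates, had 8.60 (6.86 to 10.7) over a background of 8.65, among the highest backgrounds of the 85 peaks, and further peaks of 7.86 and 4.53. Usp15, which opposes the ubiquitination of TGF-beta receptors, had 8.05 (6.10 to 10.4) and Usp4, also an activator of that pathway, 7.05 (5.17 to 9.41). Usp11 had none.

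All 6 members listed for endosomes and receptor traffic had a peak (61.0 to 100%, against 45.4% of all genes and 75.5% of the family). Their median span was 49774 bp, and of all genes between 20 and 50 kb 51.7% had a peak. Usp32, a membrane-bound protease of the late endosomal GTPase RAB7, had 11.7 (8.08 to 16.5) at chromosome 11, 84988394 to 84988896, and 5.46 in a second peak nearer the 3′ end. Usp2, which is under circadian control, had 8.24 (4.57 to 13.9) where its span overlaps the long non-coding RNA gene Gm39325 of the opposite strand, and 4.03 elsewhere. Usp33, which binds the von Hippel-Lindau protein, had 8.03 (5.82 to 10.8), 8.02 and 6.00. Usp20, its close relative, had the lowest highest value of the family, 3.21 (1.64 to 5.81) from 9 fragments.

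Among the proteases of organelle membranes, the proteasome and free ubiquitin chains, 3 of 5 had a peak (60%, 23.1 to 88.2, against 45.4% of all genes). Usp19, anchored in the endoplasmic reticulum, had 11.2 (8.11 to 15.2), and Usp30, the mitochondrial protease that opposes parkin, had 10.3 (7.17 to 14.3) near its 3′ end, at chromosome 5, 114122420 to 114123296. A weaker peak of Usp30, with 7.61, lies also in the pseudogene Gm17833. Usp13 had 3.57 (1.63 to 7.17) from 6 fragments, the fewest of the 85 peaks. Usp5, which disassembles unanchored ubiquitin chains, and Usp14, which is bound to the proteasome, had none.

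The 4 genes of interferon and inflammatory signalling all had a peak (51.0 to 100%, against 45.4% of all genes and 75.5% of the family). Their median span was 49865.5 bp, and of all genes between 20 and 50 kb 51.7% had a peak. Usp31, linked to NF-kappaB, had 12.1 (8.69 to 16.4) in the widest peak of the family, 1573 bp, at chromosome 7, 121648079 to 121649651. Usp38 had 4 peaks of 4.17 to 7.80. Usp18, which removes the ubiquitin-like ISG15 and restrains the interferon receptor, had only 4.73 (2.25 to 9.11) and 4.69, from 7 and 10 fragments. Usp39, a spliceosome protein without protease activity, had 9.10 (5.73 to 13.8) at 273 bp from a span end. Of the genes in none of these lists, Usp54 had 12.5 (9.16 to 16.6). That peak lies where the span overlaps the long non-coding RNA gene 1810062O18Rik of the opposite strand. Usp54 also had 11.2 in a peak 2985 bp from the 5′ end of its span. Usp24, one of the largest USPs, had 8.41 (6.14 to 11.3) and 6.74.

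In all, 9 of the 85 peaks (10.6%), in 8 genes, lay also in another gene's span, against 8.51% of the 22983 peaks in protein-coding spans. Only Usp49 would have no peak without them. The reads of such peaks can come from either gene, and the deposited peaks carry no strand.

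Related members are set side by side in 13 groups of closely related USPs, holding 29 genes. The groups follow general knowledge of the family and were written with the values known, so they describe these genes and nothing is drawn from their counts. All members had a peak in 5 groups and some of them in 8. With 12 of 49 members lacking a peak, mixed groups arise in any such grouping. Both Usp36 and Usp42 ranked among the strongest, at 20.2 and 18.3, with overlapping intervals. Both Usp12 and Usp46, which need WDR48, were among the weaker, at 6.73 and 5.12. Usp35 and Usp38 lay apart, at 28.8 (21.8 to 37.5) and 7.80 (5.20 to 11.3), as did Usp53 and Usp54, at 23.6 (18.9 to 29.0) and 12.5 (9.16 to 16.6), the intervals not overlapping in either pair. Usp33 at 8.03 (5.82 to 10.8) also stood above Usp20 at 3.21 (1.64 to 5.81), by a narrow gap between the intervals.

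In other groups the relatives divided into genes with and without a peak. Usp27x and Usp51, short X-linked relatives of Usp22, had 3 and 2 peaks, while Usp22 itself, with a span of 23279 bp, had none. Usp25 reached 13.3 and Usp28 had no peak. Usp16 reached 12.5 and Usp45 had none, Usp31 reached 12.1 and Usp43 had none, and Usp4 and Usp15 had 7.05 and 8.05 where Usp11 had none. The absence of a peak says only that none was called. The files give no depth over such genes, so low expression and an unmethylated transcript cannot be told apart.

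**Figure D4:**
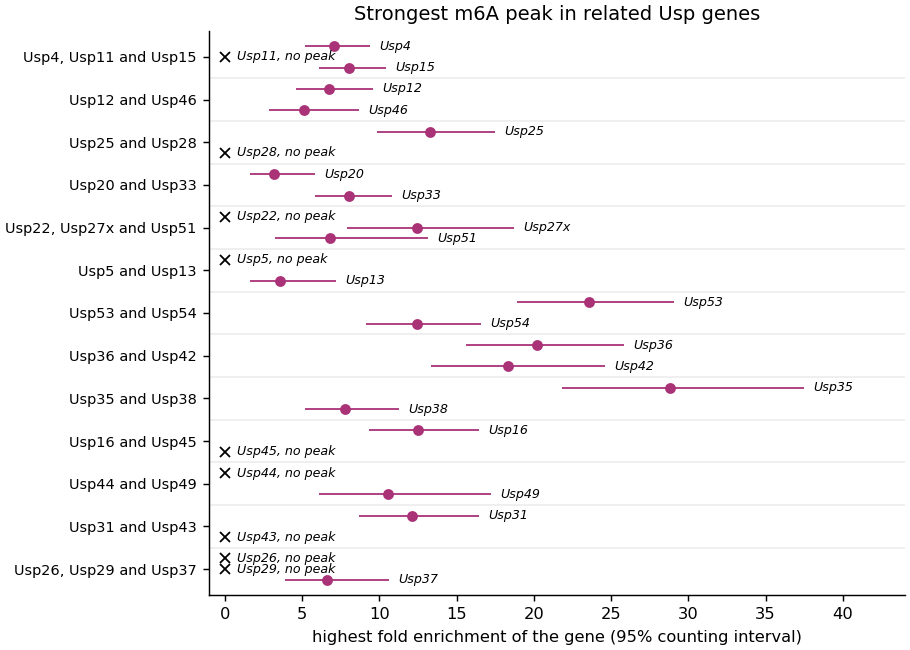
Highest fold enrichment of each gene, with its 95% counting interval, in 13 groups of closely related Usp genes; crosses at 0 mark genes with no peak. Usp35 and Usp38, and Usp53 and Usp54, have intervals that do not overlap, and 8 groups hold at least 1 gene with a peak and 1 without.

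The 12 members without a peak were Usp5, Usp11, Usp14, Usp22, Usp26, Usp28, Usp29, Usp40, Usp43, Usp44, Usp45 and Usp50. Their median span was 44012 bp, against 52114 bp for the 37 with a peak. Usp26 and Usp29 are best known from the testis and the brain. Usp29, an imprinted gene beside Peg3, has the longest span of the family, 236662 bp, without a summit in it. The nearest peak, with 11.0 (7.40 to 15.9), lay 18800 bp away, in Peg3. Usp40 had the nearest outside peak, 3461 bp away in Dgkd, with 4.60 (2.49 to 7.92), followed by Usp5, where it was 4556 bp away in Spsb2. For the other members without a peak the gap was from 8504 bp, at Usp45, to 627314 bp, at Usp26. The peaks nearest to Usp50 were those of its neighbour Usp8, 13525 bp away.

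Along the gene, summits of Usp genes lay mostly towards the 3′ end. The strand, taken from the promoter table, was known for 30 of the 37 members with a peak. In 11 of these 30 the strongest summit lay in the last 10% of the span (36.7%, 21.9 to 54.5), against 32.2% of 7834 protein-coding genes with a peak and a strand, whose share lies inside the members' interval. In 1 of 30, Usp8, it lay in the first 10% (3.33%), against 11.9%. That Usp8 summit is the one that lies also in the pseudogene Gm10774. The Usp8 peak with the highest −log10 q lay 67.4% of the way along the span. The median position of the strongest summit was 85.6% of the way along the span, against 75.8%. Over all peaks of the stranded members, 22 of 63 lay in the last 10% (34.9%) and 4 in the first 10% (6.35%), against 29% and 12.1% over all such peaks. In bases, 15 of the 30 strongest summits lay within 5000 bp of the 3′ end (50%), against 54.9%. The closest among the strongest summits were those of Usp4, 616 bp from that end, Usp30 at 979 bp and Usp25 at 1247 bp.

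Other members had their strongest site near the 5′ end. The strongest summit of Usp19 lay 1961 bp from the 5′ end of an 11731 bp span, that of Usp21 at 1074 bp and that of Usp51 at 842 bp. Usp38 had peaks at both ends, with 5.47 and 4.95 at 1037 and 698 bp from the 5′ end and 7.80 and 4.17 at 4450 and 1130 bp from the 3′ end. Of the 37 start sites in the promoter table, 6 had a summit within 1000 bp (16.2%), against 13.4% of all. This counts any summit, inside or outside the span of the gene. Summits in the member's own span lay that close only in Usp7, Usp38, Usp51 and Usp27x, at 1, 591, 842 and 978 bp. In the short Usp27x the 3 summits lay 978, 1686 and 2278 bp from the 5′ end of its 3240 bp span. Distances run from the span ends, which need not be the start site in the promoter table. That start site lay 38465 bp inside the span in Usp37, 26137 bp in Usp54, 18725 bp in Usp7 and 17899 bp in Usp2. Without exons it is not known here which summits fall in coding sequence, untranslated regions or introns.

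**Figure D5:**
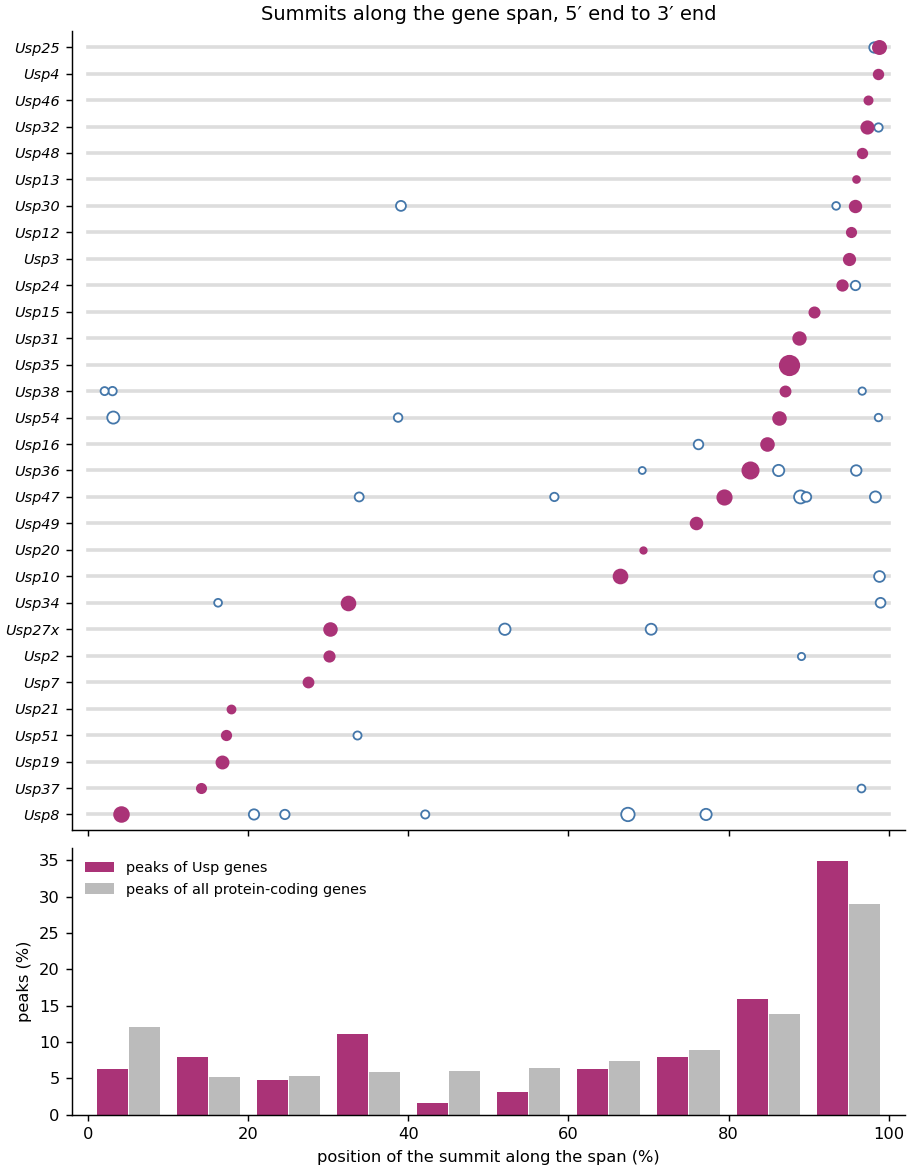
The upper panel places each summit of the 30 Usp genes with a known strand along the span, from the 5′ end at 0% to the 3′ end at 100%, with the strongest peak filled and the area of a point proportional to fold enrichment. The lower panel gives the share of peaks in each 10% of the span, where the last 10% holds 34.9% of the peaks of Usp genes and 29% of those of all protein-coding genes.

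For the 7 members with a peak and no strand, Usp1, Usp9x, Usp18, Usp33, Usp39, Usp42 and Usp53, only the distance to the nearer end can be given. The strongest summit lay 273 bp from an end in Usp39, 1014 bp in Usp1, 4468 bp in Usp42, 7861 bp in Usp18, 17045 bp in Usp9x, 18050 bp in Usp53 and 22252 bp in Usp33. Also absent from the promoter table are Usp5, Usp14, Usp22, Usp43 and Usp44. Of 48 gaps between successive summits within a member, 15 were under 2000 bp (31.2%), against 37.9% of 14750 such gaps in all protein-coding genes. The median gap was 3720 bp, against 3416 bp.

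Values of other genes of the ubiquitin system are given beside those of the Usp genes, and the differences were not tested. Of 34 listed genes for deubiquitinases of other families and related proteases, 21 had a peak (61.8%, 45.04 to 76.1, against 45.4% of all genes). That interval overlaps the one of the Usp genes. Their median highest fold enrichment was 13.2, above the 9.92 of the Usp genes. Vcpip1 had 20.4 (16.4 to 25.03), Otud7b 20.4 (16.2 to 25.2), Mindy2 19.5 (12.99 to 28.2) and Otud4 19.4 (15.8 to 23.5). The proteasome subunit gene Psmd14, the COP9 signalosome gene Cops5, Uchl1, Uchl3, Uchl5, Otub1, Otud6a, Atxn3, Brcc3, Josd2, Mindy3, Mpnd and Stambpl1 had none. Their strongest summits lay in the last 10% of the span in 2 of 18 genes with a strand (11.1%, 3.10 to 32.8) and in the first 10% in 5 (27.8%). In Usp genes the 2 shares were 36.7% and 3.33%, the second from Usp8 alone, whose summit lies also in Gm10774. The 2 intervals of the first share overlap.

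Of 80 RING finger ligase genes of the Rnf series, 47 had a peak (58.8%, 47.8 to 68.9), with a median highest value of 11.5. Of 37 genes for ubiquitin-conjugating E2 enzymes, 19 had one (51.4%, 35.9 to 66.6), with a median of 8.17. The 45.4% of all protein-coding genes lies inside the interval of the E2 genes and below that of the Rnf genes. The median span was 26264.5 bp in the Rnf genes and 30405 bp in the E2 genes. Of all genes between 20 and 50 kb 51.7% had a peak, a share inside both intervals. Among the E2 genes Ube2v1 stood highest, at 19.2 (12.9 to 27.6). The ubiquitin gene Ubb had 8.23 (6.88 to 9.76) over a background of 14.8, above that of any Usp peak.

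Genes for binding partners of USPs had a peak in 10 of 12 cases (83.3%, 55.2 to 95.3, against 45.4% of all genes). The median span of these 12 genes was 40818 bp, and of all genes between 20 and 50 kb 51.7% had a peak. Mdm2, the ligase gene whose product Usp7 protects, had 22.9 (18.4 to 28.2), against 7.67 (4.04 to 13.5) for Usp7 itself. Wdr20, a cofactor gene of Usp12 and Usp46, had 18.98 (15.1 to 23.6) and Wdr48 only 5.17 (3.65 to 7.14). Atxn7l3, which activates the proteins of Usp22, Usp27x and Usp51, had 10.7 (7.44 to 15.0), whereas Eny2 and Stam2 had none. Of 8 listed genes with a USP or related domain outside the naming rule, the SUMO protease gene Uspl1 had 14.6 (11.03 to 19.1), Cyld, a brake on NF-kappaB, 9.24 (6.15 to 13.4) and Pan2, of the deadenylation complex, 6.70 (3.998 to 10.6). The 5 listed Usp17l genes had none.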

How the data were processed

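The submitters' processing notes name the aligner HISAT2 (2.2.1), the peak caller MACS3 (3.0.0a7) and mm10 as the genome. Not given in the sources used here are the options, the background library and whether samples were pooled. Each deposited peak has a fold enrichment, a linear ratio with a pseudocount of 1. The deposited p-value and q-value of a peak stand as −log10, with 1.31 as the lowest −log10 q. The deposited score is 10 times −log10 q to within 1 in all 26584 peaks. IP pileup and background were solved from fold enrichment and the Poisson p, and all 85 peaks of Usp genes gave a whole pileup (tolerance 0.05 of the distance to the next). The solver and the assignment of peaks were tested on simulated data.

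Spans came from a RefSeq table of 49997 genes on GRCm38.p6 and strands from the RefSeq promoter table. Peaks were assigned by summit to every span that held it. Coordinates count from 1. All members are named, and values of other genes are given for the lists in the design. The members and lists were chosen with earlier results of these data known. Alternatives were a summit in 1 span only, peaks with −log10 q from 5 upwards, with fold enrichment from 4 upwards or with a pileup from 10 upwards, any or 50% overlap, the median over a gene's peaks, no pseudocount, and the last 5% of the span. Scripts ran in Python 3.11.15 with scipy 1.17.1, pandas 2.3.3, numpy 2.4.6 and, for plots, matplotlib 3.10.9.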

Additional observations from a re-analysis of the deposited data

How the results depend on the processing

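The number of Usp genes with a peak was 37 as reported and 33 to 37 under the 6 other ways of selecting or assigning peaks. With −log10 q of at least 5, Usp13, Usp18, Usp20 and Usp21 had no peak, and the share was 67.3% against 41.8% of all protein-coding genes. With an IP pileup of at least 10, Usp13, Usp20, Usp21 and Usp51 had none (67.3% against 39.8%). With summits in exactly 1 span, Usp49 had none (73.5% against 41.3%). The peaks of these genes ranged from 73 to 86. The median highest fold enrichment, 9.92 as reported, was 8.02 when all peaks of a gene entered by their median, and 15.3 without the pseudocount, where the background was above 0.5. Under the other alternatives it ranged from 9.51 to 10.5. The strongest summit lay in the last 5% of the span in 9 of 30 genes (30%), against 20.1% of all genes. No paired analysis was possible because there is 1 IP library and the single peak list holds no replicate. Usp13, Usp18, Usp20, Usp21 and Usp51 rest on only 6 to 9 fragments at their strongest summit. Whether sequencing depth plays a part in these low counts was not tested.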
